A study of Mus musculus with 14 samples.

Results

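The 9 genes described here write, erase or read DNA methylation, and their RNA was followed through the liver and kidney libraries of mice carrying the human angiotensinogen gene. They were Dnmt1, Uhrf1, Dnmt3a, Dnmt3b, Tet1, Tet2, Tet3, Mbd1 and Mbd2, taken by symbol for what they do. All 9 were found among the 19660 genes of the liver table and among the 20203 genes of the kidney table. Every animal was an adult male of 12 weeks that carried the transgene in its -6A haplotype, so the controls carried it too. The groups were liver on the normal diet (4 libraries), liver on the high salt diet (4), kidney on the normal diet (3) and kidney on the high salt diet (3), 14 libraries in all. The labels give neither the salt content or length of the diet nor the number of transgenic lines, and there was no group without the transgene. They do not say that each library came from its own animal, so p-values measure the spread between libraries. The human transgene was not analysed here.

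In mammals DNA methylation sits mostly on cytosines followed by guanine (CpG sites), and promoters rich in CpG sites are usually kept free of it. DNMT3A and DNMT3B place methyl groups on unmethylated DNA, and DNMT1, guided by UHRF1 to newly copied DNA, restores the pattern on the new strand. TET1, TET2 and TET3 oxidise the methyl group, the first step of its removal, with oxygen and 2-oxoglutarate as substrates. MBD1 and MBD2 carry a methyl-CpG binding domain and recruit proteins that repress transcription. Adult liver and kidney hold few dividing cells, the cells in which maintenance methylation is most in demand.

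The Dnmt, Uhrf and Tet genes lie on separate chromosomes. In the coordinates of the files, which are those of mm10 with stops 1 base past the GENCODE M21 ends, Dnmt1 spans chromosome 9, 20907209 to 20959889 (minus strand), Dnmt3a chromosome 12, 3806007 to 3914444 (plus), and Dnmt3b chromosome 2, 153649450 to 153687731 (plus). Uhrf1 spans chromosome 17, 56303321 to 56323487 (plus). Tet1 spans chromosome 10, 62804570 to 62908997, Tet2 chromosome 3, 133463679 to 133545140, and Tet3 chromosome 6, 83362373 to 83459085, all on the minus strand. Annotated genes on the opposite strand share 133 exon bases with Dnmt3a and 43 with Tet2, and the strandedness of the counting is not given in the sources used here.

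The 250 bases before an annotated start are shown for the 3 genes whose liver libraries did not overlap between the diets (Dnmt1, Dnmt3a and Tet3; high salt was above in 6.44% of all genes) and for Tet2, which had the smallest adjusted p between the tissues. They are RefSeq sequences of GRCm38.p6, read 5′ to 3′ on the strand of the gene, with CpG sites in capitals. Where a gene had several annotated starts, the window with the fewest GENCODE M21 exon bases and then the most CpG sites was taken. The windows lie at chr9:20952980-20953229 (minus, Dnmt1), chr12:3806730-3806979 (plus, Dnmt3a), chr6:83441679-83441928 (minus, Tet3) and chr3:133544391-133544640 (minus, Tet2).
Dnmt1: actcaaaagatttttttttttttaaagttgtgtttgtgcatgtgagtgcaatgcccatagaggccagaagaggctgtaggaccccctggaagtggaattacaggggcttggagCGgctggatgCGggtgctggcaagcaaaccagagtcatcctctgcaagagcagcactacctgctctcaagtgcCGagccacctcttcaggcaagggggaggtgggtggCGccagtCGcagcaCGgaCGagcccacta
Dnmt3a: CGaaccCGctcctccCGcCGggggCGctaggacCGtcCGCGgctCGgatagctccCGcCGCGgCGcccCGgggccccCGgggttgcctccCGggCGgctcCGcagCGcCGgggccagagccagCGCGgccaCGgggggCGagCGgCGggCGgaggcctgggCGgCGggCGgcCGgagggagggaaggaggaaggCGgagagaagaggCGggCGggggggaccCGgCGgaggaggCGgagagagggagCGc
Tet3: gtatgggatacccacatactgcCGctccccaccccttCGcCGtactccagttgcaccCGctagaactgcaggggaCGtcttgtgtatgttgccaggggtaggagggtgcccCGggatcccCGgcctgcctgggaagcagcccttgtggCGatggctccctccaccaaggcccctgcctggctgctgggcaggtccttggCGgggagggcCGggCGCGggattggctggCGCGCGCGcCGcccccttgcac
Tet2: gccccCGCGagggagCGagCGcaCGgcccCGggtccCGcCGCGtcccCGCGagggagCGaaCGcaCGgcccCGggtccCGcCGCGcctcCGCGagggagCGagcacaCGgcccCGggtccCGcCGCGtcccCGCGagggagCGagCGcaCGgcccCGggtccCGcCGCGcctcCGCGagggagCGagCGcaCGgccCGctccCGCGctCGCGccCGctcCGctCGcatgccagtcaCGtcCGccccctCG

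These upstream windows differ widely in CpG content. The Tet2 window holds 51 CpG sites, and only 16 of the 32851 RefSeq windows of this length hold more. A stretch of 22 bases, caCGgcccCGggtccCGcCGCG, occurs 4 times in it. Dnmt3a has 38 sites, with 1.565% of windows above it, and Tet3 has 17, with 21.674% above. The Dnmt1 window has 7 sites, near the median of 6 over all windows. Uhrf1 (30 sites), Dnmt3b (21) and Tet1 (15, in a window with 100 exonic bases) lie between the Dnmt1 and Tet2 windows. Another Dnmt1 start, whose window is not printed because 166 of its bases are exonic, has 26 sites, and a further one has 2. Further starts of Dnmt3a have 40 and 15 sites, and a further start of Uhrf1 has 10. Which starts were used in these tissues was not tested. The GC box GGGCGG, searched on both strands, was found 5 times in the Dnmt3a window, 1 time each in those of Tet2 and Tet3, and not in the printed window of Dnmt1, against 32.74% of all windows holding at least 1. The E2F motifs GCGGGAA and GCGCGAA, searched on both strands, were matched in none of the 4 printed windows and 1 time in the Uhrf1 window, against 5.0% of all windows. The partly exonic Dnmt1 window held 2 GC boxes and 2 E2F matches. A match describes these letters and not a bound site.

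Library depth and the spread between libraries limit every value below. Liver libraries held 37267771 to 51487386 counts and kidney libraries 16046069 to 22004915. Levels are given as CPM, counts per 1000000 counts of a library total scaled within each tissue. Normal diet liver libraries 1 and 2 stood apart: transcripts of the mitochondrial genome made up 2.30% and 2.06% of their counts, against 29.6% and 18.7% in libraries 3 and 4 and 11.3% to 19.2% in the high salt liver libraries. The 4 high salt liver libraries are numbered 5 to 8 in the table but not in the titles, and are called HS5 to HS8. HS5 and HS6 were close to each other, with an SD of their log2 differences over genes of 0.124, against 0.343 to 0.433 in the other high salt liver pairs. Their counts still differed by more than counting error, with a median chi-square per gene of 0.867 where counting error alone gives 0.455, so they were kept as 2 libraries. The labels do not say whether they came from separate animals. This comparison cannot tell either, since libraries of the same animal can also differ by more than counting error. In kidney, normal diet library 1 stood apart from libraries 2 and 3 (0.72 and 0.743, against 0.281 between those 2). Alb, a hepatocyte product, was at 32440 CPM or more in liver and at most 35.7 in kidney, and Umod, made by the thick ascending limb, was at 1014 CPM or more in kidney and at most 1.41 in liver. Nphs1, a podocyte marker, was also counted in liver, at 23.5 to 87.97 CPM.

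In liver, Dnmt1, Dnmt3a and Tet3 were higher in all 4 high salt libraries than in any normal diet library, as were 6.44% of all genes. Of the 8 genes that could be tested, 0 passed edgeR's quasi-likelihood test over all genes, where 1.0% of all genes passed. Dnmt1 was 1.80-fold, Tet3 1.95-fold and Dnmt3a 1.56-fold higher. Without normal diet libraries 1 and 2 these log2 fold changes went from 0.85 to 0.72 for Dnmt1, from 0.96 to 0.38 for Tet3 and from 0.65 to 0.13 for Dnmt3a. Mbd2 stayed within 20.4 to 24.9 CPM in all 8 libraries. In whole tissue, more cells of a type and more RNA per cell cannot be told apart.

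**Figure D1:**
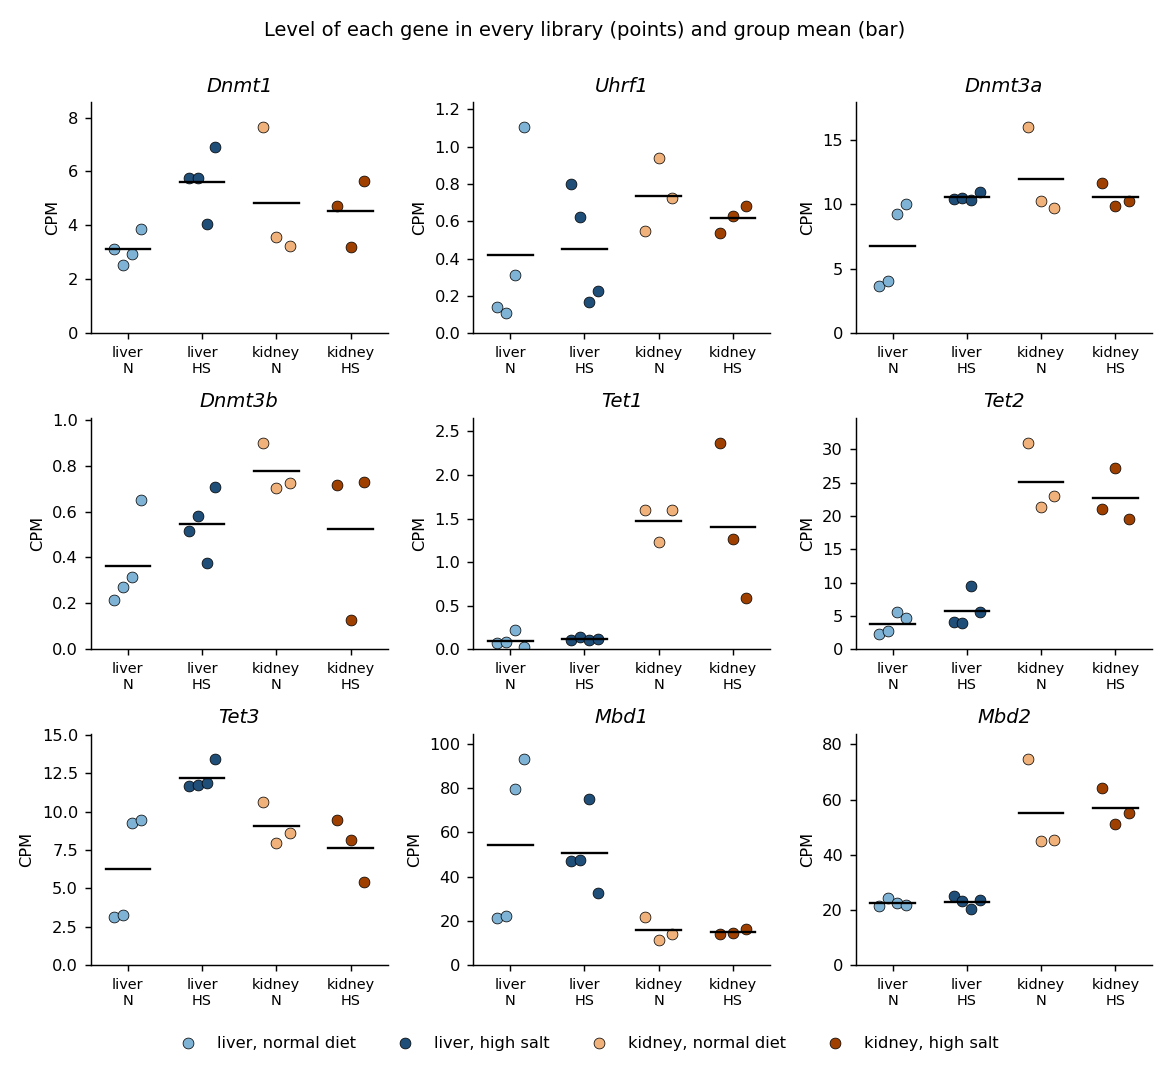
Level of each gene in CPM (vertical axis, linear, from 0, scaled within each tissue) in every library, by tissue and diet (N, normal; HS, high salt). Points are libraries and bars are group means. High salt liver points lie above all normal diet liver points for Dnmt1, Dnmt3a and Tet3, and liver libraries lie below kidney libraries for Tet1, Tet2 and Mbd2 and above them for Mbd1 except where normal diet liver libraries 1 and 2 (21.2 and 22.4 CPM) come close to normal diet kidney library 1 (21.7 CPM).

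Among the maintenance genes, Dnmt1 was measured at 3.11, 2.53, 2.96 and 3.87 CPM in normal diet liver libraries 1 to 4 and at 5.77, 5.76, 4.05 and 6.92 CPM in HS5 to HS8. These values rest on 93 to 161 counts on the normal diet and 195 to 392 on high salt. The lowest high salt library, HS7, lay just above the highest normal diet library. The Dnmt1 log2 fold change came to 0.85 (standard error, SE, 0.22; edgeR adjusted p = 0.0965).

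Uhrf1, the partner that brings DNMT1 to replicated DNA, showed no such separation. It was at 0.14, 0.11, 0.31 and 1.11 CPM in normal diet libraries 1 to 4, and at 0.80, 0.62, 0.17 and 0.23 CPM in HS5 to HS8. The diets overlapped throughout, over 4 to 46 counts per library. In libraries 4, HS5 and HS6, the highest of the 8, the deposited Uhrf1 counts (45.8, 44.6 and 30.2) were not whole numbers, whereas those of the other 5 were. The log2 fold change came to 0.11 (SE 0.75), and it ran from -0.31 to 1.28 when 1 library was left out.

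Of the de novo enzymes, Dnmt3a had the higher level per kilobase of exon in every group. It was at 3.66, 4.09, 9.25 and 10.02 CPM in normal diet libraries 1 to 4 and at 10.42, 10.46, 10.37 and 10.97 CPM in HS5 to HS8. High salt libraries lay within 1.06-fold of each other, while normal diet libraries 3 and 4 lay 2.49-fold above libraries 1 and 2. The separation of the diets at library 4 was thus 10.02 against 10.37 CPM. The log2 fold change came to 0.65 (SE 0.32; edgeR adjusted p = 0.277), and 0.13 (adjusted p = 0.676) without normal diet libraries 1 and 2. Dnmt3b was under 1 CPM in every library, at 0.21 to 0.65 CPM on the normal diet (9 to 27 counts) and 0.37 to 0.71 CPM on high salt (18 to 40 counts), with overlap.

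The erasers differed among themselves. Tet3 was at 3.14, 3.24, 9.25 and 9.47 CPM in normal diet libraries 1 to 4 and at 11.68, 11.73, 11.91 and 13.46 CPM in HS5 to HS8. As with Dnmt3a, normal diet libraries 1 and 2 were low and libraries 3 and 4 came near the high salt level without reaching it. The log2 fold change came to 0.96 (SE 0.37; edgeR adjusted p = 0.185), and 0.38 (adjusted p = 0.238) without libraries 1 and 2. Tet2 was at 2.26, 2.78, 5.63 and 4.73 CPM on the normal diet and at 4.14, 3.94, 9.54 and 5.62 CPM on high salt, with overlapping diets and the highest value in HS7. Tet1 had only 1 to 7 counts per liver library and was not tested there.

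Of the readers, Mbd1 varied widely between libraries and Mbd2 very little. Mbd1 was at 21.2, 22.4, 79.8 and 93.4 CPM in normal diet libraries 1 to 4, a 4.41-fold range within 1 group, and at 46.9, 47.5, 75.4 and 32.8 CPM in HS5 to HS8. The Mbd1 log2 fold change came to -0.10 (SE 0.49), and its sign depended on the libraries used: it was -0.77 without normal diet libraries 1 and 2 and 0.29 without library 4. Mbd2 was at 21.5, 24.4, 22.6 and 21.8 CPM on the normal diet and at 24.9, 23.2, 20.4 and 23.5 CPM on high salt. Its log2 fold change came to 0.03 (SE 0.13), the smallest error of the 8 genes tested.

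Tested over all 15130 liver genes that passed the filter on low counts, 0 of the 8 genes had an edgeR adjusted p under 0.05, where 1.0% of all genes did. Dnmt1 and Tet3 (2 of 8) had an unadjusted p under 0.05 with edgeR, against 21.2% of all genes. DESeq2 called 1 of the 8, Dnmt1 (adjusted p = 0.0116), against 6.72% of all genes. Voom of limma, with weights that count variable libraries less, called 7 of the 8, all but Mbd2 and all higher on high salt (Mbd1 against its edgeR sign), and 54.8% of all genes. The diets did not overlap, with high salt above, in 3 of 8 genes and in 6.44% of all genes. The median log2 fold change of the 8 was 0.59, against -0.02 over all genes tested, and 7 of the 8 lay above 0, against 48.0% of all genes. Without normal diet libraries 1 and 2 the median of the 8 fell to 0.15, against -0.01 over all genes, and 6 of the 8 lay above 0. With HS5 and HS6 summed to 1 library, the fold changes of Dnmt1, Dnmt3a and Tet3 were 0.84, 0.65 and 0.98 on the log2 scale, and again 0 of 8 were called by edgeR.

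**Figure D2:**
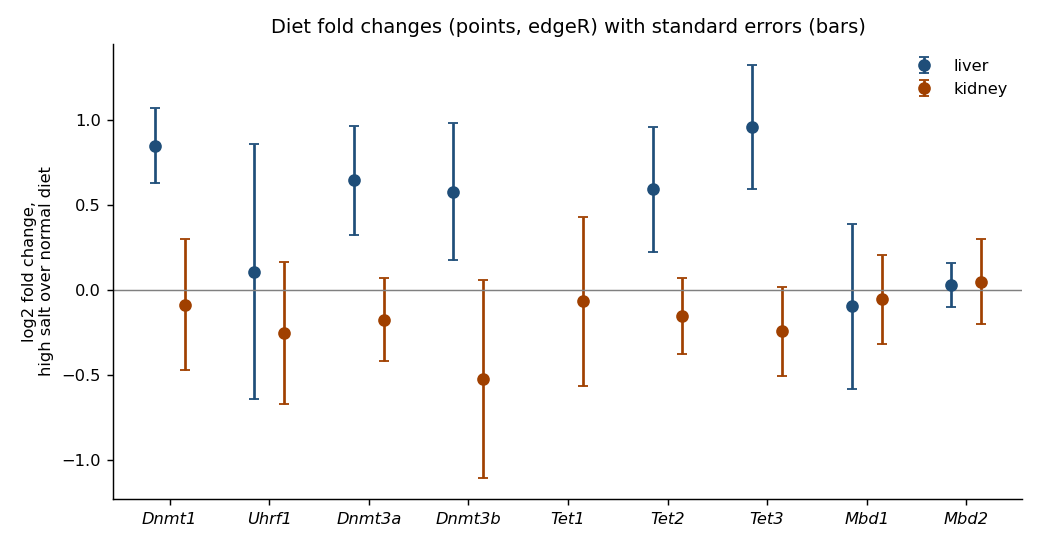
Log2 fold change of high salt over normal diet (vertical axis) for each gene, in liver (8 libraries; Tet1 not tested) and kidney (6 libraries). Points are edgeR estimates and bars are 1 standard error on each side. The liver points of Dnmt1 (0.85) and Tet3 (0.96) lie highest, while the kidney points run from -0.52 to 0.05.

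Several of these genes differed in the same direction between the normal diet liver libraries of low and high mitochondrial share. The mean of libraries 3 and 4 was 5.64-fold that of libraries 1 and 2 for Uhrf1, 3.98-fold for Mbd1, 2.93-fold for Tet3, 2.49-fold for Dnmt3a and 2.06-fold for Tet2. It was 1.98-fold for Dnmt3b and 1.60-fold for Tet1, and the values of Uhrf1, Dnmt3b and Tet1 rest on few counts. Dnmt1, at 1.21-fold, and Mbd2, at 0.968-fold, differed least. Over all genes tested the median was 1.02-fold, and 16.1% had a ratio of 2 or more. Malat1 and Neat1, long RNAs kept in the nucleus and looked at after the other values were seen, were 6.98-fold and 5.68-fold higher in libraries 3 and 4. Malat1 was at 36.1, 26.8, 194.6 and 245.1 CPM in normal diet libraries 1 to 4 and at 85.5 to 206.3 CPM in the high salt libraries. Libraries 1 and 2 were thus low together in mitochondrial transcripts, in these nuclear RNAs and in Uhrf1, Mbd1, Tet3, Dnmt3a and Tet2; the part of this in the diet differences of Dnmt3a and Tet3 was not tested beyond leaving them out. Dnmt1 separated the diets to nearly the same extent without them, at 0.72 on the log2 scale (SE 0.25; edgeR adjusted p = 0.225).

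**Figure D3:**
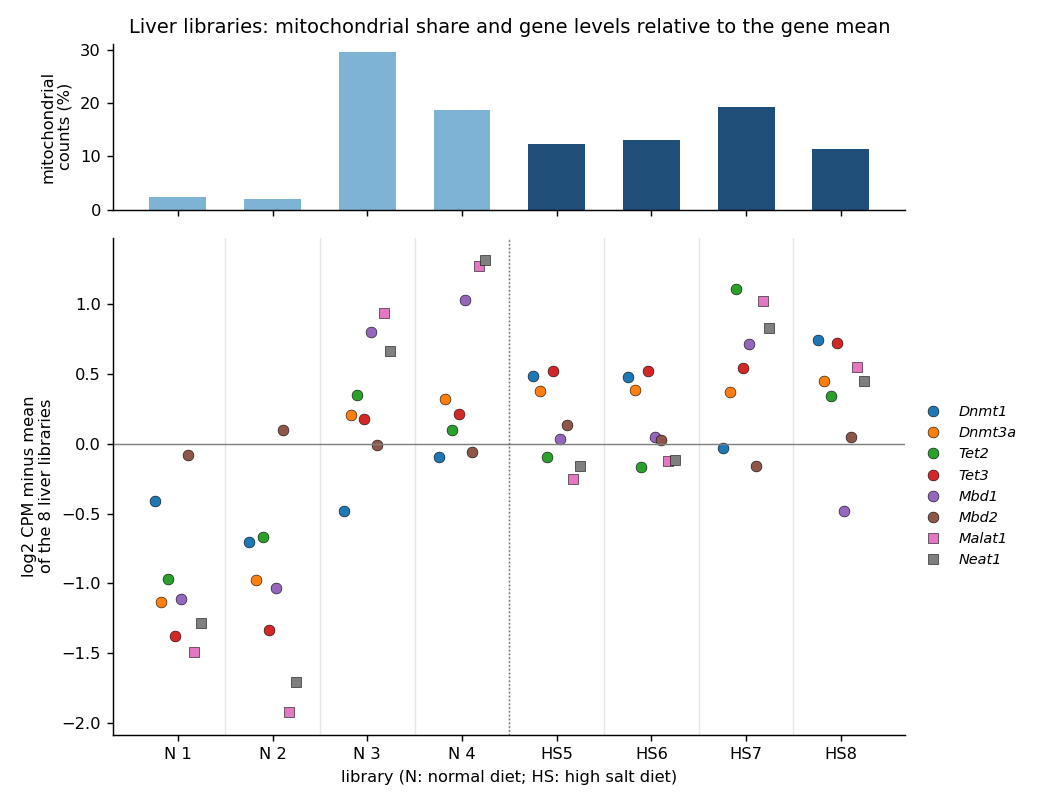
Upper panel: share of counts from the mitochondrial genome (percent) in each liver library. Lower panel: log2 CPM of 6 of the genes and of Malat1 and Neat1, each less its mean over the 8 liver libraries, with the diets on either side of the dotted line. Libraries N 1 and N 2 are low in mitochondrial share (2.30% and 2.06%) and lie well below 0 for every plotted gene but Mbd2, which stays near 0, and Dnmt1 lies below 0 in all 4 normal diet libraries.

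Markers of other cells were read beside these values. Over all liver genes 48.0% of log2 fold changes lay above 0. Endothelial and stromal markers had 0 of 11 called in liver with edgeR, but 10 of 11 log2 fold changes above 0 and a median of 0.55. Their summed level was 100.3 to 171.6 CPM on the normal diet against 153.7 to 201.1 CPM on high salt. Col1a1, a collagen chain of fibroblasts and stellate cells, was at 0.90 ± 0.56 and 2.93 ± 1.51 CPM (SD, n = 4 each; log2 fold change 1.72, edgeR adjusted p = 0.102). Leukocyte markers had 0 of 12 called, 9 of 12 below 0 and a summed level of 117.1 to 244.6 against 76.9 to 141.7 CPM. S100a9, abundant in neutrophils, ranged from 0.409 to 31.7 CPM among the normal diet libraries and stayed under 1 CPM on high salt. Hepatocyte markers had 0 of 10 called, 4 above 0, 6 below 0 and a median of -0.17. Their summed level was 56290 to 81490 CPM on the normal diet against 92930 to 110000 CPM on high salt. Alb had the highest log2 fold change of the list (0.76, edgeR adjusted p = 0.19) and Cyp2e1 the lowest (-0.87). Alb was at 32440 to 50640 against 67820 to 85230 CPM. Acute phase genes had 0 of 8 called, all 8 below 0 and a median of -4.415. The diets did not overlap for 5 of them, against 12.5% of all genes. Their summed level was 4892 to 64780 against 3279 to 4314 CPM. Lcn2, at a log2 fold change of -9.317, ranged from 2.806 to 2848 CPM among the normal diet libraries. On high salt it was at 0.8344 to 1.497 CPM. The normal diet mean of Lcn2 (714.6 ± 1422 CPM, SD, n = 4) thus rests mostly on its highest library. Fgg was at 1817 to 4057 against 1510 to 1958 CPM. How far 1 normal diet library sets the median of the list was not tested. Only 2 of the 8 kidney epithelium markers counted in liver could be tested, and 0 were called. Every marker counted in liver had at least 3 counts in 1 liver library or more. The part of cell composition in the levels of Dnmt1, Dnmt3a and Tet3 was not tested.

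Genes that work with the 9 gave few calls in liver. The highest and lowest of each list are those of genes that averaged 50 counts or more. Of 18 other methylation readers and writers tested, 0 passed with edgeR and the diets did not overlap for 2, against 12.5% of all genes. Of the 18 log2 fold changes 17 lay above 0, against 48.0% of all genes. Their median was 0.30, against -0.02 over all genes. The highest was Kdm2b, which binds unmethylated CpG sites through a CXXC domain, at 2.06 ± 0.36 and 3.86 ± 0.68 CPM on normal diet and high salt (SD, n = 4 each; log2 fold change 0.90, edgeR adjusted p = 0.0848). Uhrf2, the paralog of Uhrf1, was the lowest at -0.14. Of 22 members of the repressor complexes that methyl-CpG readers recruit, 0 were called and 17 lay above 0, against 48.0% of all genes. The diets did not overlap for 6 of the 22, against 12.5% of all genes. Hdac1, a histone deacetylase, had the lowest value of that list, -0.65. The lists of related genes and markers were not summarised again without normal diet liver libraries 1 and 2.

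Genes of methyl removal and of the substrates of these enzymes lay closer to 0 or below it. Base excision genes and TET partners had 0 of 15 called and a median of -0.01, from Gadd45g at -0.75 to Gadd45a at 0.57. Enzymes that make or use 2-oxoglutarate and 2-hydroxyglutarate, listed together with succinate dehydrogenase subunits and fumarase, had 0 of 13 called and a median of -0.26. In this list 10 lay below 0, where 48.0% of all genes lay above it. Fh1, the fumarase whose substrate inhibits TET enzymes, was the lowest at -0.60 (edgeR adjusted p = 0.0977). In the methyl donor cycle, which supplies S-adenosylmethionine, 1 of 21 genes passed, against 1.0% of all genes. That gene, Nnmt, which spends methyl groups on nicotinamide, fell by 2.55 on the log2 scale (SE 0.21, edgeR adjusted p = 0.0046). Cell division genes had 0 of 20 called with a median of 0.22. Rrm2, which makes deoxynucleotides for DNA synthesis, was the highest of these at 1.14 (edgeR adjusted p = 0.102), and Tk1, which also supplies them, was the lowest at -0.83.

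In kidney none of the 9 genes differed between the diets beyond the spread of the libraries. Tested over 15847 genes, 0 of 9 were called by edgeR (adjusted p = 0.9996 each), where 0.0% of all genes were called, and 0 of 9 had an unadjusted p under 0.05, against 2.01% of all genes. DESeq2 and voom also called 0 of the 9, and DESeq2 called 0.0644% of all genes. The diets overlapped for all 9, and in all but 6.92% of all genes. Log2 fold changes ran from -0.52 (Dnmt3b) to 0.05 (Mbd2), and 8 of 9 lay below 0, while 46.3% of all genes lay above it. That count rests on normal diet library 1: without it 4 of 9 lay below 0, the median of the 9 went from -0.15 to 0.03, and Dnmt1, Dnmt3a, Tet2, Mbd1 and Mbd2 lay above 0. With 3 libraries against 3 a two-sided exact permutation test cannot go below 0.1.

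Normal diet kidney library 1 held the highest kidney value of Dnmt1, Dnmt3a, Dnmt3b, Tet2, Tet3, Mbd1 and Mbd2. Dnmt1 was at 7.64, 3.57 and 3.24 CPM in normal diet libraries 1 to 3 and at 4.73, 3.21 and 5.64 CPM in high salt libraries 1 to 3. Without normal diet library 1 its log2 fold change went from -0.09 to 0.42 (edgeR adjusted p = 0.476). Dnmt3a was at 16.0, 10.25 and 9.73 CPM and at 11.7, 9.89 and 10.27 CPM. Mbd2 was at 74.8, 44.8 and 45.3 CPM and at 64.1, 51.1 and 55.3 CPM. Mbd1 likewise peaked in library 1, at 21.7 CPM, with the other 5 kidney libraries at 11.2 to 16.5 CPM.

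For each kidney eraser, high salt library 3 was the lowest of the 6 libraries and normal diet library 2 the lowest of its diet. Within high salt, library 1 was the highest for Tet1 and Tet3 and library 2 for Tet2. Tet2 was at 30.98, 21.4 and 23.0 CPM on the normal diet and at 21.1, 27.3 and 19.6 CPM on high salt. Tet3 was at 10.64, 7.96 and 8.62 CPM and at 9.47, 8.13 and 5.41 CPM, a log2 fold change of -0.24 (SE 0.26). Tet1 was at 1.60, 1.23 and 1.60 CPM and at 2.37, 1.26 and 0.59 CPM, over 13 to 53 counts. Uhrf1 lay at 0.54 to 0.94 CPM in all 6 libraries. Dnmt3b lay at 0.70 to 0.90 CPM in 5 of 6 libraries and at 0.13 CPM, 2 counts, in high salt library 2.

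The lists of related genes gave no kidney calls either. Other methylation readers and writers had 0 of 19 called with edgeR and a median log2 fold change of -0.02, from Mbd6 at -0.24 to Kdm2b at 0.35. Repressor complexes had 0 of 22 and a median of 0.02, the methyl donor cycle 0 of 19 and 0.02, and cell division genes 0 of 17 and -0.11. Base excision genes and TET partners had 0 of 14 and a median of 0.04. The 2-oxoglutarate list, with succinate dehydrogenase subunits and fumarase, had 0 of 13 and 0.07. Leukocyte markers gave 0 of 10 and -0.03, hepatocyte markers 0 of 8 and 0.08, kidney epithelium markers 0 of 10 and -0.07, and acute phase genes 0 of 4 and 0.05. Endothelial and stromal markers, 0 of 10 called, had the highest median, 0.24, and summed levels of 146.6 to 232.6 CPM on the normal diet and 215.1 to 222.7 CPM on high salt. The median over all kidney genes was -0.02.

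Whether the diet acted differently in the tissues was tested as an interaction in 1 fit of all 14 libraries. Of the 9 genes, 0 were called by edgeR, where 0.0% of 16633 genes were, and 2 had an unadjusted p under 0.05, against 10.1% of all genes. These were Tet3, with a liver minus kidney difference in log2 fold change of 1.23 (SE 0.48; edgeR adjusted p = 0.423), and Dnmt1, with 0.95 (SE 0.44; adjusted p = 0.486). DESeq2 called 0 of the 9. A different response of liver and kidney was therefore not shown for any of the 9 genes.

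The tissues were compared next, on the normal diet, in the fit of all 14 libraries. Tet1, Tet2 and Mbd2 were lower in liver than in kidney and Mbd1 was higher, while Dnmt1, Uhrf1, Dnmt3a, Dnmt3b and Tet3 did not pass the test. The fit called 4 of the 9 genes, where 65.1% of all 16633 genes were called (32.9% higher and 32.2% lower in liver). Liver and kidney libraries did not overlap for the same 4, and for 58.8% of all genes. Liver and kidney counts come from separately quantified tables, so tissue and table cannot be told apart. Levels in this comparison are CPM scaled over all 14 libraries.

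Tet2 averaged 4.51 ± 1.71 CPM in liver (SD, n = 4) and 20.5 ± 4.14 in kidney (SD, n = 3), 4.54-fold higher in kidney (edgeR adjusted p = 2.8e-05). The lowest kidney library stood above the highest liver library on either diet. Tet1 averaged 0.117 ± 0.096 and 1.20 ± 0.17 CPM, 10.4-fold higher in kidney (edgeR adjusted p = 9.0e-05), and its liver values rest on 1 to 7 counts per library. Leaving out normal diet liver library 3, which held 7 of these counts, moved the log2 ratio of Tet1 from -3.38 to -4.03. Tet3, the third eraser, was at 7.31 ± 3.90 and 7.40 ± 1.13 CPM, a log2 ratio of -0.02 (SE 0.34).

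The readers, whose genes both lie on the plus strand of chromosome 18 (Mbd1 at 74267605 to 74282733, Mbd2 at 70568189 to 70626132), went in opposite directions. Mbd1 averaged 62.8 ± 41.9 CPM in liver and 12.8 ± 4.40 in kidney, 4.92-fold higher in liver (edgeR adjusted p = 0.00059). That mean joins 2 low and 2 high liver libraries, and without normal diet liver libraries 1 and 2 the log2 ratio of Mbd1 was 2.95 in place of 2.30. Mbd2 averaged 26.8 ± 2.33 and 44.8 ± 13.9 CPM, 1.67-fold higher in kidney (edgeR adjusted p = 0.0034). Without normal diet kidney library 1, which held the highest value, the log2 ratio of Mbd2 went from -0.74 to -0.45 (edgeR adjusted p = 0.029). Scaling matters to such ratios: the median log2 ratio of all genes was 0.02 with the trimmed mean of M-values (TMM) used here, -0.10 with DESeq2 and -0.28 with upper quartile scaling, and these 4 genes kept their direction and their calls under each.

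On high salt, 6 of the 9 genes differed between liver and kidney, where 62.7% of all genes did. Mbd1 was 4.89-fold higher in liver, and Tet1, Tet2 and Mbd2 were 7.87-fold, 2.69-fold and 1.69-fold higher in kidney. Tet3 was 2.32-fold higher in liver (edgeR adjusted p = 0.0066) and Dnmt1 1.81-fold higher (adjusted p = 0.0262). For Dnmt1, Dnmt3a and Tet3 all 4 high salt liver libraries lay above all 3 high salt kidney libraries, and 69.1% of all genes did not overlap in 1 direction or the other. The calls of Tet3 and Dnmt1 on 1 diet only are not shown to differ between the diets, since the interaction was not called.

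**Figure D4:**
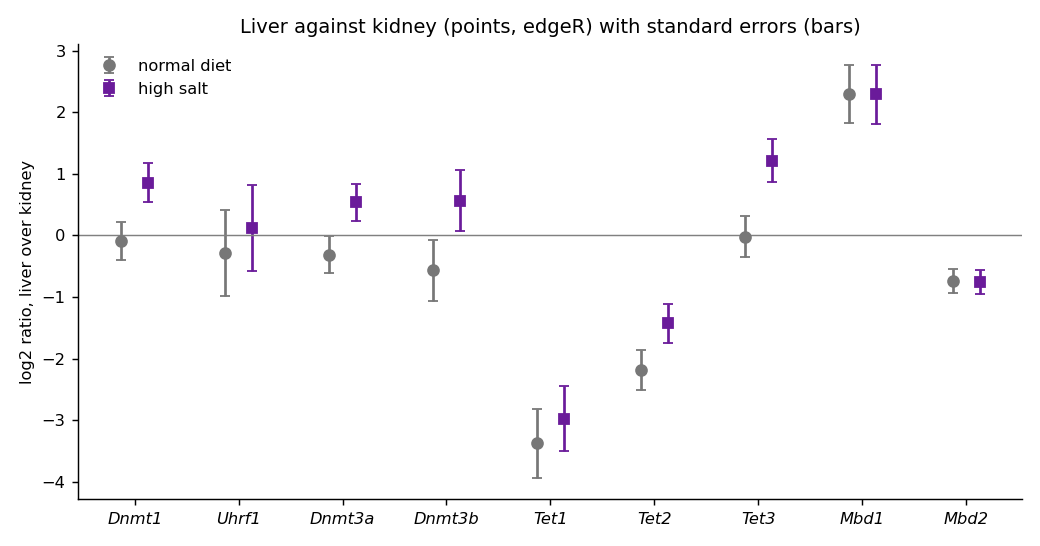
Log2 ratio of liver over kidney (vertical axis) for each gene with either diet. Points are edgeR estimates from 1 fit of 14 libraries and bars are 1 standard error on each side. Tet1, Tet2 and Mbd2 lie below 0 and Mbd1 above 0 on both diets, whereas Tet3 moves from -0.02 to 1.22.

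Of the other readers and writers of methylation, 17 of 20 were called between the tissues on the normal diet, against 65.1% of all genes. Among these, 7 were higher in liver and 10 in kidney. Mbd4, a glycosylase that removes thymine or uracil opposite guanine, was 5.29-fold higher in kidney (edgeR adjusted p = 4.6e-06). Mbd3, a subunit of the NuRD complex, was 2.34-fold higher in liver (edgeR adjusted p = 0.00018), and Uhrf2 1.47-fold higher in liver. Zbtb4, a zinc finger reader of methyl-CpG, was 3.16-fold higher in kidney. These 4 were named after their values were seen. Genes of the methyl donor cycle had 14 of 21 called higher in liver and 5 in kidney, against 32.9% and 32.2% of all genes.

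Compared per kilobase of annotated exon (the union of GENCODE M21 exons), the readers led in both tissues. In normal diet liver Mbd1 was at 8.08 ± 5.64 and Mbd2 at 7.02 ± 0.40 CPM per kb (SD, n = 4), with overlapping libraries. Dnmt1 (0.42), Dnmt3a (0.41), Tet3 (0.38) and Tet2 (0.23) followed, each overlapping the next, then Uhrf1 (0.098), Dnmt3b (0.071) and Tet1 (0.0064). In normal diet kidney Mbd2 led alone at 17.1 ± 5.35 CPM per kb (SD, n = 3), ahead of Mbd1 (2.34 ± 0.81) and Tet2 (1.49 ± 0.30), which overlapped. Below them came Dnmt3a (0.72), Dnmt1 (0.65) and Tet3 (0.54), again overlapping, and Uhrf1 (0.17), Dnmt3b (0.15) and Tet1 (0.095). Dividing by the longest transcript instead put Dnmt3a above Dnmt1 in normal diet liver, so the order within that group is not fixed by these data.

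The makeup of the Tet and Mbd families on the normal diet differed between the tissues without overlap of the libraries. Of the summed Tet level per kilobase, Tet3 took 59.8% ± 5.72 and Tet2 39.1% ± 5.24 in normal diet liver (SD, n = 4). In normal diet kidney Tet2 took 69.8% ± 1.27, Tet3 25.6% ± 0.78 and Tet1 4.53% ± 0.61 (SD, n = 3). On high salt Tet3 took 68.4% ± 8.78 in liver and 24.1% ± 4.05 in kidney. Mbd1 took 48.2% ± 19.6 of the Mbd pair in normal diet liver and 12.0% ± 1.17 in kidney. Dnmt3b had the smallest share of the Dnmt genes in every group, from 6.998% ± 0.91 in high salt liver to 10.5% ± 2.12 in normal diet kidney, and Dnmt1 and Dnmt3a split the rest, with 49.1% and 43.2% in normal diet liver.

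**Figure D5:**
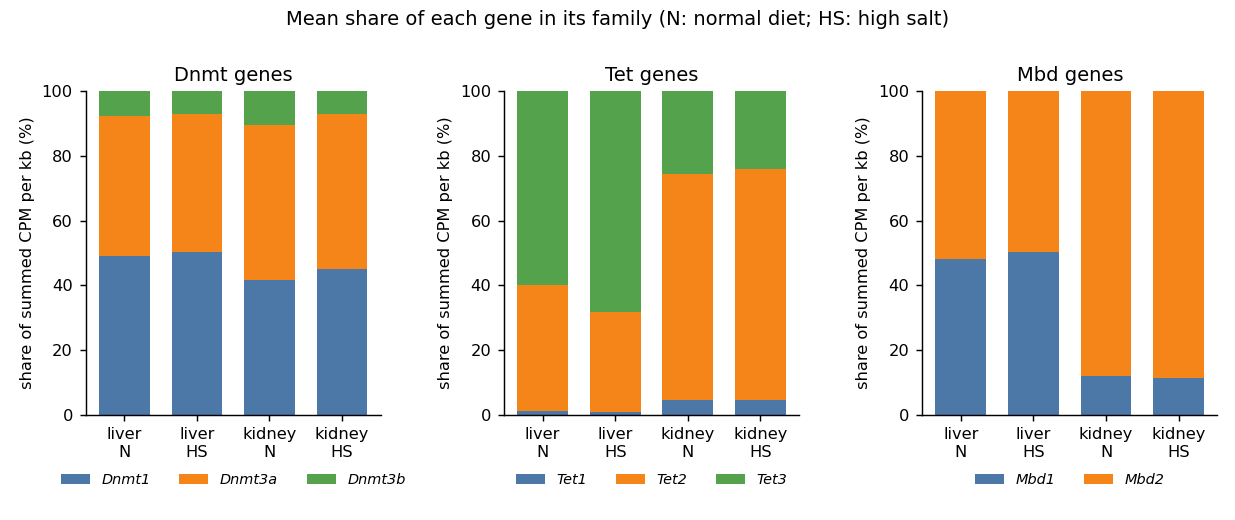
Mean share of each gene in the summed CPM per kilobase of its family (vertical axis, percent) in the 4 groups. Each bar adds up to 100 percent over the Dnmt, Tet or Mbd genes. Tet3 is the major part of the Tet bar in liver (59.8% on the normal diet) and Tet2 in kidney (69.8%), and Mbd1 is near an even split with Mbd2 in liver but 12.0% in kidney.

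Genes with the most similar profile were sought by the root mean square difference of centred log2 CPM over the 14 libraries, among 10354 genes. Mbd2 had the closest matches, Zmpste24 at 0.104 and Stag1 at 0.109, where the median gene lay at 0.742. Micall1 lay at 0.132 from Dnmt3a, against a median of 0.783. For Dnmt1 the closest were Mcu (0.184) and Stk40 (0.189), for Tet3 Baz2a (0.208) and Fbrsl1 (0.223), and for Tet2 Ahnak (0.22) and Zbtb10 (0.236). Mbd1 matched Raph1 (0.25) and Rnf169 (0.33). Tet1, Uhrf1 and Dnmt3b, all of low count, had no gene closer than 0.351. Among the 9 genes themselves Dnmt3a and Tet3 were the most alike pair, at 0.318, and Tet1 and Mbd1 the least, at 2.38. All such values share the same libraries, scaling and depth, and are a description only.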

How the data were processed

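RNA of liver and kidney was sequenced from SMARTer mRNA libraries, per the labels' protocols. The authors deposited expected counts per gene, a table per tissue, in which 58.5% of liver and 64.1% of kidney values were whole numbers. The submitters' processing notes name STAR 2.5.3a, Partek 7.0, DESeq2 and mm10, with no roles given. A linear signal per gene, normalized by the authors in a way not given in the sources used here, served only as an alternative. Of the per-sample columns, 0 were left unused.

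Expected counts were rounded and tested with edgeR 4.0.16 in R 4.3.3 (quasi-likelihood, TMM scaling, filterByExpr by group, Benjamini-Hochberg adjustment over all genes tested, threshold 0.05). Each tissue was fitted apart for the diet. Tissue and interaction were fitted over the 17600 shared genes, in 1 fit of 14 libraries. The filter kept 8 of the 9 genes in liver (not Tet1), 9 in kidney and 9 in the joint fit. CPM values use TMM library sizes. Pairs of liver libraries were set against counting error by a chi-square per gene, over genes with at least 20 counts in the pair. The common coefficient of variation between replicates (liver 0.314, kidney 0.3) exceeds counting error for most genes. A count of 0 allows up to 3 counts, by counting error alone.

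The 9 genes, the 11 other lists and the tests were chosen with earlier results of these data known. Genes named beside the 9 are the highest and lowest log2 fold change of each list and tissue among genes with a mean of at least 50 counts, any list gene past the threshold, the 2 genes of most similar profile (log2 of CPM + 0.1), Alb and Umod; a few genes that the rule takes are not reported here. In simulated counts 200 genes had a log2 change of 2. Of these edgeR recovered 193 in the liver design (15158 genes), 181 in the kidney design (15850 genes) and 104 in the interaction (16597 genes). False calls numbered 10, 11 and 5. With all libraries, the largest edgeR estimates of the 9 genes were smaller: 0.96 in liver and 1.23 in the interaction (Tet3), and -0.52 in kidney (Dnmt3b). Recovery of changes of these sizes was not tested. The simulation drew counts with a common coefficient of variation of 0.3 and a single mean profile per tissue. It held no library set apart like normal diet liver libraries 1 and 2 or normal diet kidney library 1. Nor did it hold a pair as close as HS5 and HS6. Its recovery and false calls may therefore not carry over to these libraries.

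The alternatives tried were DESeq2 1.42.0, upper quartile and RLE scaling, limma 3.58.1 (voom weighted by sample, and log2 of the deposited normalized signal plus 1 or 0.1), a minimum of 10 counts in every library, no filter, mitochondrial genes left out, a replicate block, HS5 and HS6 summed, and libraries left out. The longest transcript as gene length was added after seeing the data.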

Additional observations from a re-analysis of the deposited data

Results flagged for a closer look

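Of the 18 groups of 4 liver libraries checked (9 genes on 2 diets), 2 held a library far from the other 3. In both it was high salt library HS8. Chance gives about 0.9 of 18 for independent groups, but the genes share the same libraries, and HS5 and HS6 were close to each other. Dnmt3a was at 10.97 CPM in HS8, with the other 3 at 10.37 to 10.46 CPM. Tet3 was at 13.46 CPM, with the others at 11.68 to 11.91 CPM. In each case the distance was small against the normal diet spread of the gene, and it stood out because the other 3 libraries were nearly equal.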

How the results depend on the processing

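The number of the 9 genes called was 0 in every alternative run for kidney diet and interaction. For liver against kidney on the normal diet it was 3 or 4 (4 in the main fit). The tissues on high salt, a separate comparison, gave 6. For liver diet the number moved from 0 to 1 with DESeq2 and to 7 with voom and sample weights. It stayed at 0 in the other 18 alternatives. Over all genes the edgeR count of 152 liver calls ran from 12 to 765 with 1 library left out (12 without HS6, 18 without HS5, 32 without HS8, 39 and 41 without normal diet libraries 1 and 2, 409 without 4, 765 without 3). It was 12 with HS5 and HS6 summed, 52 without normal diet libraries 1 and 2, 260 in the joint fit, 1084 with DESeq2 and 8284 with voom. DESeq2 called 13 kidney genes and 142 interaction genes where edgeR called 0, and the interaction gave 0 to 7 genes with 1 library left out, 1 without normal diet liver libraries 1 and 2, and 2 with at least 10 counts in every library.

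Signs of log2 fold changes turned only for values within about 1 standard error of 0. In liver, Uhrf1 (0.11) went to -0.13 with HS5 and HS6 summed, to -0.66 without normal diet libraries 1 and 2, and from -0.31 to 1.28 with 1 library left out. Mbd1 in liver (-0.10) went to 0.15 with limma at both pseudocounts, to 0.86 with voom (adjusted p = 0.0183), and from -0.37 to 0.29 with 1 library left out. Mbd2 in liver ran from -0.012 to 0.07 with 1 library left out. In kidney, Mbd1 went to 0.015 with limma at both pseudocounts and, with voom, Dnmt1, Dnmt3a and Mbd1 went to 0.43, 0.072 and 0.27. Leaving out 1 library gave -0.31 to 0.42 for Dnmt1, -0.31 to 0.089 for Dnmt3a, -0.69 to 0.31 for Tet1, -0.30 to 0.027 for Tet2, -0.25 to 0.25 for Mbd1 and -0.081 to 0.34 for Mbd2.

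For liver against kidney, Tet3 (-0.02) went to 0.00 without the filter, and without normal diet liver libraries 1 and 2 Tet3, Uhrf1 and Dnmt3a went to 0.53, 0.46 and 0.17. On high salt the ratios of Dnmt1, Uhrf1, Dnmt3a, Dnmt3b and Tet3 were 0.86, 0.12, 0.54, 0.57 and 1.22, all negative on the normal diet. With 1 library left out Dnmt1 ran from -0.34 to 0.42, Uhrf1 from -1.42 to 0.014 and Tet3 from -0.27 to 0.19. In the interaction, Mbd1 (-0.01) went to 0.00 without the filter and 0.031 with HS5 and HS6 summed, and without normal diet liver libraries 1 and 2 Uhrf1 went to -0.33 and Mbd2 to 0.07. With 1 library left out Mbd1 ran from -0.31 to 0.37, Mbd2 from -0.30 to 0.12 and Uhrf1 from -0.025 to 1.54. The cause of these turns was not tested.

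Same-numbered deviations correlated at 0.53, 0.51 and -0.15 between the kidney diets and at -0.22, 0.25 and -0.30 between normal diet liver and kidney. Differently numbered ones ran from -0.60 to 0.52 and from -0.31 to 0.33. With so few libraries these values cannot tell whether equal numbers mark paired libraries. With the replicate block kidney kept 0 of 9 calls and 0 genes, with 459 genes at an unadjusted p under 0.05, and normal diet liver against kidney gave 3 of 9 calls and 7738 genes, Mbd2 having an edgeR adjusted p of 0.104. No paired analysis was possible because the high salt liver columns carry no number of a title, for liver diet and the interaction. Depth limits Tet1 in liver (1 to 7 counts), Uhrf1 and Dnmt3b.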
